A study of Drosophila melanogaster with 60 samples.

Results

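The Bomanins are a family of short secreted peptides of the Drosophila immune response. Here 9 Bomanin genes were followed: BomS1 to BomS6, BomT2, BomT3 and BomBc1. They were found through their CG numbers in each of 2 deposited expression tables, where BomS1, BomS2, BomS3 and BomBc1 stand under the older names IM1, IM2, IM3 and IM23 (immune-induced molecules). All 9 were listed in both tables, the table of the overexpression experiment holding 7648 genes and that of the RNAi experiment 7444. Each was listed as 1 transcript, and none repeated the values of another gene. BomBc2 and BomBc3, the other listed genes of the 12 in the family, are given beside them, and BomT1 is not analysed here.

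In flies, fungi and many Gram-positive bacteria are sensed by recognition proteins in the haemolymph that set off a protease cascade. The cascade cleaves Spätzle, the ligand of the Toll receptor, and Toll signalling releases the NF-κB factors Dif and Dorsal from their inhibitor Cactus. The fat body, whose head portion surrounds the brain, then secretes Bomanins and antifungal peptides such as Drosomycin. Short Bomanins (BomS) are little more than the family's conserved motif, tailed ones (BomT) carry a further stretch after it, and bicipital ones (BomBc) carry the motif at both ends of a linker. In the reference gene order, 10 family genes stand side by side on chromosome arm 2R with 0 other genes between them, in the order BomT1, BomBc1, BomS1, BomS4, BomBc2, BomS2, BomS3, BomT2, BomS5 and BomS6. BomT3 and BomBc3 stand on arm 3R. The annotated spans of BomS4 and BomBc2 overlap on opposite strands, and since strand in counting is not given in the sources used here, reads of these 2 genes may not be told apart.

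The study sequenced the polyadenylated 3′ ends of transcripts from Drosophila melanogaster heads, in 60 libraries from 2 experiments on cabut (cbt), a zinc finger transcription factor. In the overexpression experiment, controls with the Tim-gal4 driver (conOE, 12 libraries) were set against flies with Tim-gal4 and UAS-cbtFLAG (OE, 12 libraries). In the RNAi experiment, controls with Tim-gal4 and UAS-Dcr2 (conRNAi, 18 libraries) were set against flies with Tim-gal4 and UAS-cbt RNAi (RNAi, 18 libraries), whose label lists no UAS-Dcr2. Each genotype was sampled at Zeitgeber times (ZT) 3, 7, 11, 15, 19 and 23, in 2 courses for the overexpression experiment and 3 for the RNAi experiment. All groups carry Tim-gal4, a driver active where the clock gene timeless is transcribed. The labels give no sex or age and do not say whether courses came from separate flies. The p-values then cover only spread from library to library, which may be technical. In whole heads, fewer cells of a type and less RNA per cell cannot be told apart.

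Read totals recovered from the values ranged from 349019 to 13922764 per library, with medians of 3365607 in conOE, 2308046 in OE, 4750668 in conRNAi and 2720848 in RNAi. The fewest reads behind any value of these 9 genes were 62, for BomBc1 in a conRNAi library. The targeted gene did not follow the overexpression label: cbt lay at 54.7 to 140 normalised reads in the libraries labelled OE and at 233 to 355 in conOE, a log2 difference of -1.61 (SE 0.121, limma adjusted p = 3.41e-11). A transgene is counted by 3′ reads only where it carries the listed 3′ end, which the labels do not give. Between RNAi and conRNAi, cbt differed by -0.06 (adjusted p = 0.618). The eye colour gene w, which UAS transgenes commonly carry as a marker, was higher in both labelled groups, by 2.42 in OE and by 0.996 in RNAi on the log2 scale. Directions below therefore belong to the libraries labelled OE and RNAi.

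In the overexpression experiment, 8 of the 9 Bomanin genes were higher in the libraries labelled OE and 1, BomS4, was lower. The differences ran from 2.12-fold for BomS6 to 14.04-fold for BomBc1. Among all 7648 genes, 22.7% were higher and 18.6% lower (limma-trend fit of genotype and time to log2(value + 1), Benjamini-Hochberg adjusted p under 0.05). The ranges of the 2 genotypes did not overlap for any of the 8 higher genes, where 4.17% of all genes were higher without overlap. The median log2 difference of the 9 was 2.03, and that of all genes 0.01. Each of the 8 was higher at 6 of 6 times.

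BomBc1, the bicipital peptide formerly named IM23, showed the largest difference of the 9. Its lowest, median and highest values were 342, 547 and 840 normalised reads in the 12 conOE libraries and 5431, 7251 and 13304 in the 12 labelled OE. The lowest OE library thus stood several fold above the highest control. The means were 582 ± 179 and 8140 ± 2533 (SD, n = 12 each), a log2 difference of 3.81 (SE 0.162, limma adjusted p = 1.42e-15). By time, the difference of the means ran from 3.17 to 4.39 on the log2 scale. Within OE, course 1 spanned 5431 to 7628 and course 2 spanned 6830 to 13304, so the courses overlapped.

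All short Bomanins except BomS4 were higher in OE. BomS1, next to BomBc1 on the chromosome, ranged from 709 to 1814 (median 1228) in conOE and from 5052 to 12352 (median 7641) in OE, a log2 difference of 2.74 (SE 0.163, limma adjusted p = 3.83e-13). BomS3 ranged from 2149 to 5038 (median 2989) in conOE and from 10829 to 25439 (median 15406) in OE, a log2 difference of 2.29 (SE 0.131). BomS2 ranged from 4154 to 8387 (median 5481) in conOE and from 15729 to 30350 (median 20625) in OE, a log2 difference of 1.89 (SE 0.116). These 3 genes encode the peptides first described as IM1, IM3 and IM2, and in each the OE libraries stood wholly above the controls. BomS5 ranged from 1610 to 3512 (median 2039) in conOE and from 6581 to 13760 (median 8414) in OE, a log2 difference of 2.03 (SE 0.149). Its 2 OE courses did not overlap, with 6581 to 8173 in course 1 and 8655 to 13760 in course 2. BomS6, at the other end of the cluster, ranged from 8712 to 16545 (median 11772) in conOE and from 17867 to 42147 (median 22575) in OE. Its log2 difference of 1.08 (SE 0.121, limma adjusted p = 5.35e-08) was the smallest of the 8 that were higher.

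The tailed Bomanins lie on different arms. BomT2, on 2R, ranged from 1542 to 3078 (median 1997) in conOE and from 6808 to 11943 (median 8946) in OE. BomT3, on 3R, ranged from 1321 to 2413 (median 1885) in conOE and from 5265 to 8142 (median 6763) in OE. Neither overlapped between genotypes. Their log2 differences were 2.13 (SE 0.108, limma adjusted p = 2.22e-14) and 1.87 (SE 0.0963, limma adjusted p = 3.00e-14). The remaining bicipital genes were also higher, BomBc2 by 2.26 (SE 0.117) and BomBc3 by 3.15 (SE 0.202).

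**Figure D1:**
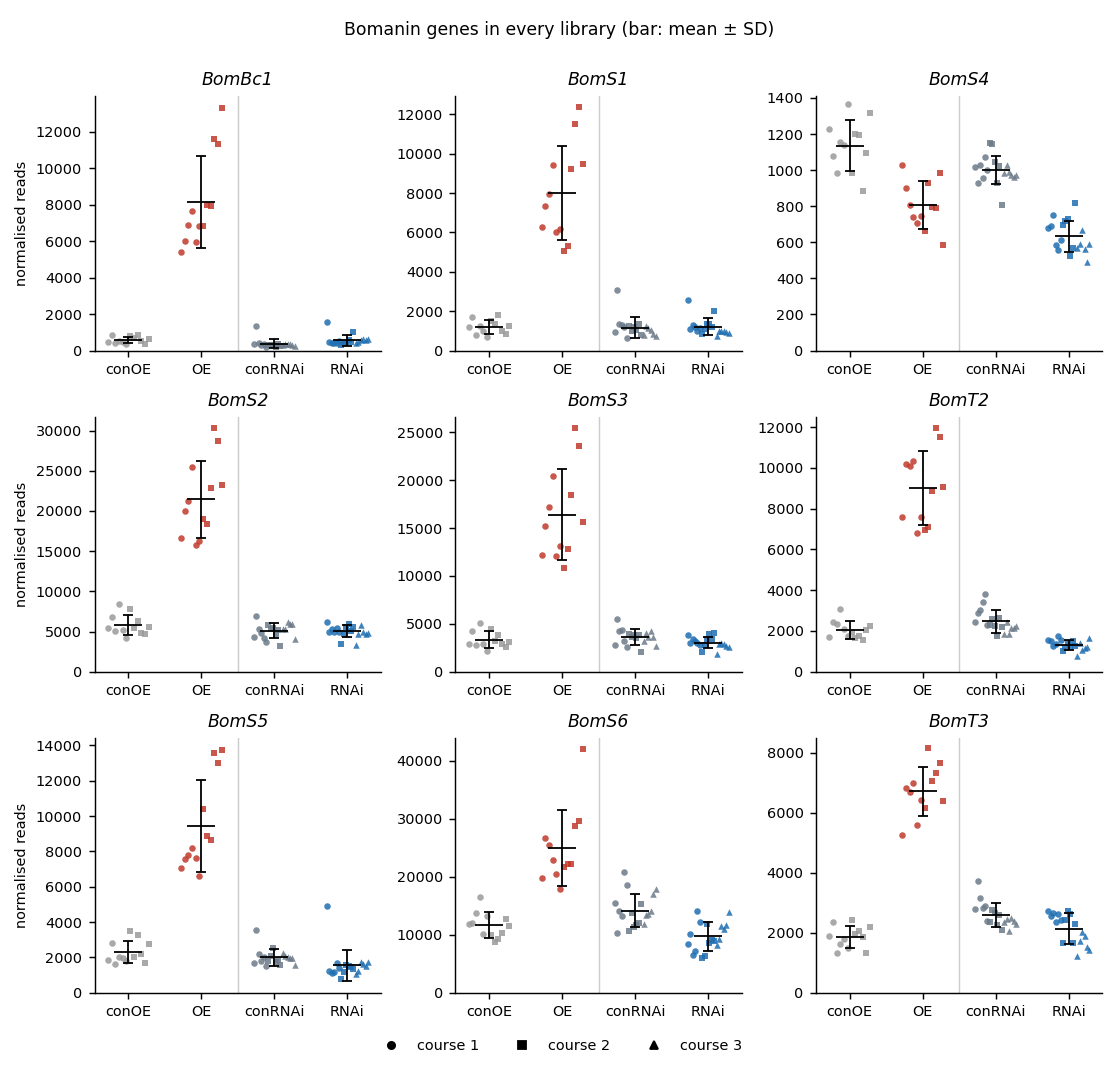
Normalised reads (vertical axis, linear from 0) of each Bomanin gene in every library of the 4 genotypes, with courses as symbols and the mean ± SD as bars; the grey line separates the tables, which were normalised separately. In 8 panels the OE points lie wholly above conOE, in the BomS4 panel they lie lower, and single high points stand out in conRNAi and RNAi for BomBc1, BomS1 and BomS5.

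BomS4 fell while its neighbours on both sides rose. Its lowest, median and highest values were 885, 1149 and 1368 normalised reads in conOE and 588, 793 and 1031 in OE, so the ranges overlapped; 1.82% of all genes were lower without overlap. The means were 1136 ± 141 and 807 ± 132 (SD, n = 12 each). The log2 difference was -0.50 (SE 0.0892, limma adjusted p = 5.94e-05), with lower means at 6 of 6 times. The smallest number of reads behind any BomS4 value was 67, in an OE library.

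The log2 ratio between 2 Bomanins of the same library was compared between conOE and OE. Its ranges did not overlap for 17 of the 36 pairs, among them all 8 with BomS4 and all with BomBc1. Between conRNAi and RNAi this held for 0 of 36 pairs. The share over pairs of all genes was not counted. The 8 pairs with BomS4 set a gene lower in OE against genes higher in OE, so they largely repeat those differences. On the log2 scale BomS2 stood 2.33 above BomS4 on average in conOE (range 1.60 to 2.97) and 4.72 above it in OE (range 4.01 to 5.31), with no overlap. BomS2 stood 3.35 above BomBc1 in conOE (range 2.91 to 3.93) and 1.43 above it in OE (range 0.81 to 1.74), again with no overlap. Against BomT3 on the other arm, BomS2 kept nearly the same average ratio, 1.64 in conOE and 1.66 in OE. BomS2 was taken as the common partner after the values were seen, because its difference in the RNAi experiment was the smallest. These ratios carry no test.

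**Figure D2:**
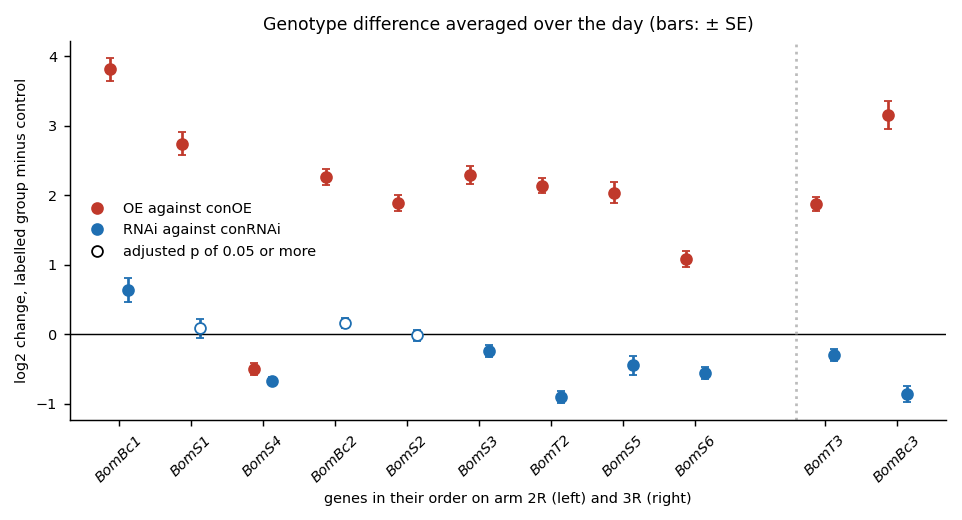
Log2 difference of the labelled group from its control (vertical axis, bars ± SE) for the 11 listed Bomanin genes in their chromosomal order, with overexpression in red and RNAi in blue, and open symbols for an adjusted p of 0.05 or more. BomS4 is the only red point below 0 among the 11 genes, and the blue points run from 0.63 for BomBc1 to -0.90 for BomT2.

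In the RNAi experiment the same 9 genes split. In the libraries labelled RNAi, 6 were lower, 1 was higher and 2 did not pass the test, while 13.1% of all 7444 genes were lower and 9.23% higher (limma adjusted p under 0.05). The median log2 difference of the 9 was -0.30, and that of all genes -0.01. The 6 lower genes were BomT2, BomS4, BomS6, BomS5, BomT3 and BomS3, and the higher one was BomBc1. Without ZT23, or without course 2 of conRNAi, 0 of the 9 were higher.

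BomT2 was the only one of the 9 whose ranges did not overlap, where 0.403% of all genes were lower without overlap. Its lowest, median and highest values were 1762, 2304 and 3831 normalised reads in 18 conRNAi libraries and 765, 1299 and 1746 in 18 labelled RNAi. The means were 2465 ± 543 and 1316 ± 251 (SD, n = 18 each), a log2 difference of -0.90 (SE 0.0852, limma adjusted p = 2.56e-11). BomS4, lower in the overexpression experiment too, had values of 805 to 1149 (median 993) in conRNAi and 489 to 816 (median 603) in RNAi. The groups overlapped only narrowly. Its log2 difference was -0.67 (SE 0.0524, limma adjusted p = 1.21e-13). BomS6 ranged from 10342 to 20757 (median 13689) in conRNAi and from 6084 to 14072 (median 9230) in RNAi, a difference of -0.56 (SE 0.0851, limma adjusted p = 1.52e-06). All 3 genes were lower at 6 of 6 times.

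The other 3 differences were smaller, and each call depended on single courses or times. BomS5 was lower by -0.45 on the log2 scale (SE 0.131, limma adjusted p = 0.00945), BomT3 by -0.30 (SE 0.0894, adjusted p = 0.0110) and BomS3 by -0.24 (SE 0.0845, adjusted p = 0.0348). For BomT3 and BomS3 the groups overlapped widely. BomS5 ranged from 1492 to 3553 (median 1969) in conRNAi and from 765 to 4927 (median 1423) in RNAi. Its second highest RNAi value was 1758. The call for BomS5 held under 21 of 24 alternatives, with a limma adjusted p as low as 1.73e-06. The call for BomS5 was lost without course 2 of RNAi (adjusted p = 0.0750), without ZT7 (adjusted p = 0.102) and with edgeR (adjusted p = 0.0508). The call for BomT3 was lost without course 3 of RNAi, where its difference was -0.12 (adjusted p = 0.302), without course 1 of conRNAi (-0.20, adjusted p = 0.196) and with 1 mean value per course (adjusted p = 0.229). For BomS3 the call was lost under 9 of 24 alternatives, with the highest adjusted p, 0.259, without course 3 of RNAi.

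BomBc1 was higher in the RNAi libraries. Its lowest, median and highest values were 192, 317 and 1360 normalised reads in conRNAi and 282, 490 and 1554 in RNAi, so the groups overlapped; 0.282% of all genes were higher without overlap. The log2 difference was 0.63 (SE 0.173, limma adjusted p = 0.00545), with higher means at 5 of 6 times. Leaving out course 2 of conRNAi gave 0.52 (adjusted p = 0.0620), and leaving out ZT23 gave 0.43 (adjusted p = 0.0789). BomS1, its neighbour, gave 0.08 (SE 0.136, adjusted p = 0.721), and BomS2 gave -0.02 (SE 0.0747, adjusted p = 0.895). BomBc2 also missed the threshold at 0.16 (adjusted p = 0.110; it passed under 2 of 24 alternatives), and BomBc3 was lower by -0.86 (SE 0.114, adjusted p = 8.92e-08).

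Within libraries of the RNAi experiment, BomS2 stood 1.06 above BomT2 in conRNAi on the log2 scale (range 0.12 to 1.75) and 1.94 above it in RNAi (range 1.56 to 2.46). It stood 3.90 above BomBc1 in conRNAi (range 2.36 to 4.40) and 3.25 above it in RNAi (range 1.99 to 3.75). Both ratios overlapped between genotypes. The ratio of BomS2 to BomS4 averaged 2.33 in conRNAi and 2.98 in RNAi.

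**Figure D3:**
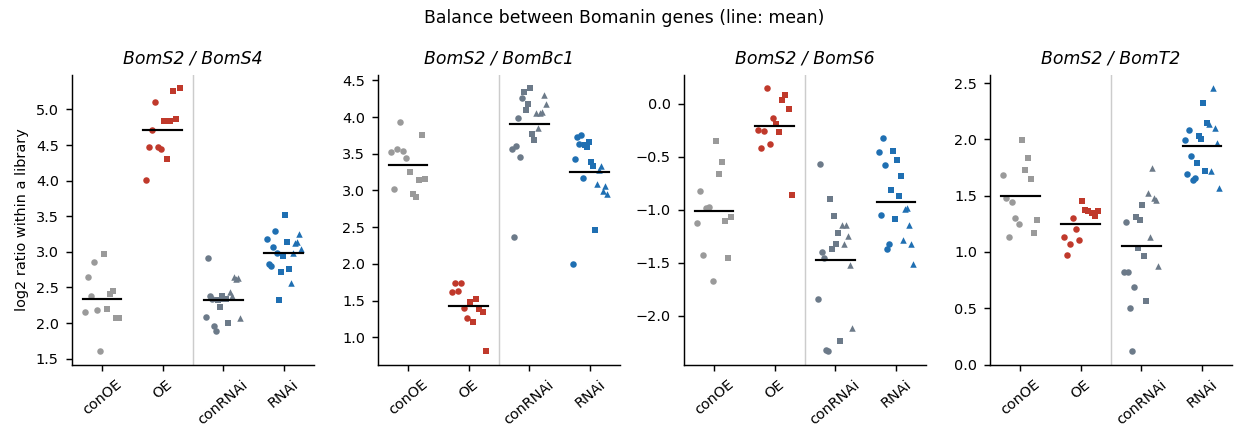
Log2 ratio of BomS2 to BomS4, BomBc1, BomS6 and BomT2 within each library (vertical axes, each with its own range), by genotype, with courses as symbols (circle 1, square 2, triangle 3) and the mean as a line. In the overexpression experiment the ratios to BomS4 and BomBc1 separate fully and in opposite directions, while all 4 ratios overlap in the RNAi experiment.

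A few libraries of the RNAi experiment stood apart in several Bomanins at once. In the conRNAi library of course 1 at ZT7, BomBc1 was at 1360 normalised reads, and at 192 to 435 in the other 17 conRNAi libraries. The same library held the highest conRNAi value of BomS1 (3063), BomS2 (6989), BomS3 (5543), BomS5 (3553) and BomT3 (3725). BomS4, at 930, ranked 16 of 18 there and BomS6, at 10342, was the lowest of the 18. The antifungal peptide gene Drs stood at 5658 in that library and at 95.1 to 419 in the others.

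The RNAi library of course 1 at ZT3 had the highest values of its genotype for BomBc1 (1554), BomS1 (2557), BomS2 (6190) and BomS5 (4927). The other 17 RNAi libraries reached at most 1758 for BomS5. BomS4 (680) and BomS6 (8472) lay inside the range of the others, and Drs was at 2769. Mtk (3652) and AttC (3190) also had their highest RNAi values there, while Def, TotA and Rel lay inside the range of the others. In the RNAi library of course 2 at ZT23, BomBc1 was at 1003 and BomS1 at 2014, with BomS5 at 1325 inside the range of the rest. BomS3 (3998) and BomS4 (816) had their highest RNAi values there, and the other RNAi libraries reached at most 751 for BomS4. This library had the fewest recovered reads of all, 349019. Without the first 2 of these libraries, 6 of the 9 genes were lower and 1 was higher, and the log2 difference of BomBc1 was 0.65 (limma adjusted p = 3.26e-05). Without all 3, BomBc1 gave 0.57 (adjusted p = 2.15e-05). These exclusions were chosen after seeing the data.

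BomS4 and BomS6 followed the others least across all libraries. After the mean of each genotype and time was subtracted, the Pearson correlation of BomS4 with the mean of the other 8 was 0.13 over 24 libraries and 0.12 over 36. For BomS6 it was 0.34 and -0.01. For the other 7 genes it lay between 0.59 and 0.94 over the 24 libraries and between 0.52 and 0.78 over the 36. These correlations are descriptions over libraries that share courses. In the overexpression experiment each genotype and time held 2 libraries, whose deviations mirror each other. The 24 libraries thus carry fewer free values than their number. In the RNAi experiment the deviations of the 3 libraries of a group are tied as well. The high libraries above belong to the RNAi experiment and enter only the correlations over its 36 libraries. The coefficient of variation in conRNAi ran from 7.86% for BomS4 to 68.1% for BomBc1, a gene whose value there includes the high library.

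By the same measure, the genes most like the mean of the 9 were Dso2 (r = 0.943), CG11842 (0.905), Bbd (0.894), CG7970 (0.860) and CG6067 (0.839) over the 24 overexpression libraries. Dso2 and Bbd encode secreted immune peptides, Daisho 2 and Bombardier, the latter named for its part in Bomanin-mediated defence. Over the 36 RNAi libraries they were CG4757 (0.945), BomBc3 (0.910), Bbd (0.896), Dso2 (0.896) and Drs (0.865).

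For the time of day, the difference between genotypes was tested for dependence on ZT. In both experiments 0 of the 9 genes, and 0% of all genes, passed a joint test of genotype with time (5 terms, limma and edgeR, adjusted p under 0.05). At an unadjusted p under 0.05, limma gave 0 of the 9 and 121 genes in all in the overexpression experiment, and edgeR gave 0 and 120. In the RNAi experiment limma gave 3 of the 9 (BomBc1, BomS2 and BomS3) and 336 genes in all, and edgeR gave 4 and 223.

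Within a genotype, a 24 h harmonic passed for BomS3 in conRNAi and for no other of the 9 in any genotype. BomS3 averaged 3335, 4407, 3927, 4040, 3531 and 2447 normalised reads at ZT 3, 7, 11, 15, 19 and 23 in conRNAi (3 libraries each). The lowest values were at ZT23, from 2045 to 2706. The fitted peak was at ZT 10.96 with a log2 amplitude of 0.33 (limma adjusted p = 0.0159), and 4.1% of all genes passed in conRNAi. Without the high library at ZT7 the adjusted p was 0.0145, and without course 1 or without course 3 the count was 0. Harmonics passed for 1.2% of all genes in conOE, 0.601% in OE and 2.18% in RNAi. These shares changed with 1 course left out, which also leaves fewer libraries. The count over all genes then went from 92 to 13 or 7 in conOE and from 46 to 117 or 109 in OE. In conRNAi it went from 305 to 135 without course 1 and to 149 without course 3, and in RNAi from 162 to 71 and 62 without those courses. At an unadjusted p under 0.05 the harmonics gave 2 of the 9 in conOE, 2 in OE, 6 in conRNAi and 0 in RNAi. Over all genes they gave 777 in conOE and 719 in OE, of 7648, and 1112 in conRNAi and 910 in RNAi, of 7444. Whether BomS3 differed in rhythm between conRNAi and RNAi rests on the joint test above, where it did not pass (limma adjusted p = 0.9999).

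In the authors' deposited table, the rhythm test of the 9 genes gave a q under 0.05 for 4 in conRNAi: BomS5 (q = 0.00201), BomS3 (q = 0.00322), BomS2 (q = 0.0122) and BomS1 (q = 0.0381). In the authors' deposited table it also passed for BomS3 in OE (q = 0.00702) and for BomS4 in RNAi (q = 0.0440), with 0 of the 9 in conOE. The share of all genes under this q was not counted here, so these counts stand without a background. BomS3 in OE averaged 11491 normalised reads at ZT3 and 22938 at ZT15 over 2 courses, and the harmonic fitted here gave an adjusted p of 0.201. BomS6 in conRNAi averaged 17282 at ZT23 and 12483 at ZT7, with a harmonic peak at ZT 20.77 that missed the threshold (limma adjusted p = 0.158).

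**Figure D4:**
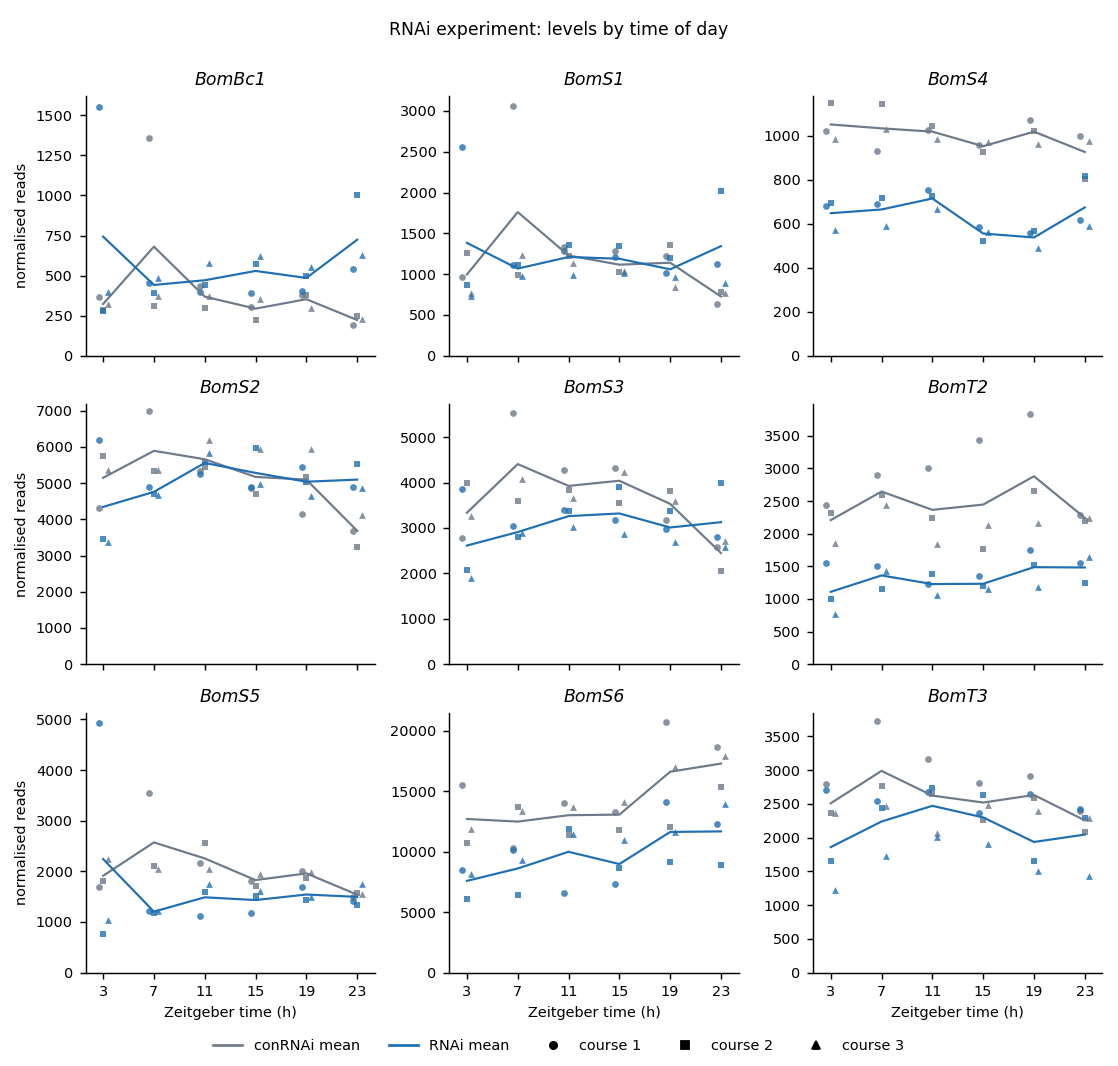
Normalised reads of each Bomanin gene by Zeitgeber time in hours in the RNAi experiment, with every library as a point (shifted sideways by course) and lines through the means of 3 libraries. The BomS4, BomS6 and BomT2 lines of RNAi stay below conRNAi at all 6 times, and the high conRNAi library at ZT7 and RNAi library at ZT3 lift the BomBc1, BomS1 and BomS5 lines there.

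Upstream of the Bomanins, genes of the extracellular Toll cascade were mostly higher in OE. Of 12 measured, 9 were higher and 0 lower, with a median log2 difference of 0.92. SPE, the protease that cleaves Spätzle, was higher by 1.85 (SE 0.108, limma adjusted p = 2.43e-13), the recognition protein gene PGRP-SD by 1.46 (SE 0.115) and the ligand gene spz by 1.01 (SE 0.126). In the libraries labelled RNAi, 0 of 11 were higher and 7 were lower, with a median of -0.30. There SPE was lower by -0.73 (SE 0.0797, limma adjusted p = 1.11e-09) and PGRP-SD by -0.74 (SE 0.0908), while spz gave 0.03 (adjusted p = 0.863).

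The receptor and its cytoplasmic partners showed smaller differences. Of 10 measured, 2 were higher and 2 lower in OE, with a median of 0.09. These shares lie near those over all genes, of which 22.7% were higher and 18.6% lower. The higher genes were Traf6 (0.67), a signalling adaptor, and Pli (0.83), which encodes Pellino. The lower ones were Deaf1 (-0.43), a transcription factor, and tub (-0.36), the adaptor Tube (adjusted p = 0.0096). The call for Pli was lost without course 1 of conOE (adjusted p = 0.0856), course 2 of OE (adjusted p = 0.146) or ZT3 (adjusted p = 0.0586), and that for tub without course 2 of conOE (adjusted p = 0.119) or with 1 value per course (adjusted p = 0.0708). Tl, the receptor itself, gave -0.05 (adjusted p = 0.787), cact, the inhibitor, 0.07 (adjusted p = 0.486) and dl, the factor Dorsal, 0.29 (adjusted p = 0.114). For dl, 3 of 21 alternatives passed: without course 2 of conOE (0.49, adjusted p = 0.0445), without course 1 of OE (0.48, adjusted p = 0.0387) and without the libraries under 1000000 reads (0.37, adjusted p = 0.0414). In RNAi 1 of 10, cact, was lower (-0.18, adjusted p = 0.0350) and 0 were higher, with a median of -0.01. Over all genes, 13.1% were lower and 9.23% higher in RNAi. That call for cact was lost under 13 of 24 alternatives, among them summed transcripts (-0.02, adjusted p = 0.841) and leaving out course 1 or 2 of conRNAi or course 2 of RNAi. Tl gave -0.16 (adjusted p = 0.338) and dl -0.01 (adjusted p = 0.980), and Dif is not analysed here.

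Other Toll targets were mostly higher in OE and mostly lower in RNAi. Of 14 measured, 11 were higher and 0 lower in OE, with a median of 1.55. Drs was higher by 4.53 (SE 0.216), Mtk, another antifungal peptide gene, by 3.14 (SE 0.257), Dso1 by 2.58 (SE 0.110), Drsl5, a Drosomycin-like gene, by 2.57 (SE 0.111), and Bbd by 2.18 (SE 0.165). In RNAi 11 of 14 were lower and 0 higher, with a median of -0.37. The list of targets shares cact and nec with the Toll lists above, and cact counts again among the lower genes in RNAi. Drsl5 was lower by -0.86 (SE 0.0729, limma adjusted p = 1.32e-12), Bbd by -1.07 (SE 0.131), Dso2 by -0.62 (SE 0.0977) and Mtk by -1.32 (adjusted p = 0.00946). Drs gave -1.08 and missed the threshold (adjusted p = 0.0764), with values of 18.7 to 2769 in RNAi and 95.1 to 5658 in conRNAi. It passed under 7 of 24 alternatives: without the first 2 high libraries (-1.14, adjusted p = 0.00122), without all 3 (-1.35, adjusted p = 1.36e-06), with 1 value per course (adjusted p = 0.00983), and without course 1 of RNAi, ZT3, ZT23 or the libraries under 1000000 reads. The call for Mtk was lost without course 1 of conRNAi (-0.98, adjusted p = 0.133), ZT11 (adjusted p = 0.0504), ZT15 (adjusted p = 0.0688) or ZT19 (-0.86, adjusted p = 0.143).

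The differences were not limited to Toll targets. Over all genes, 22.7% were higher and 18.6% lower in OE, and 9.23% higher and 13.1% lower in RNAi. Of 13 genes of the Imd cascade, the fly's other NF-κB pathway, 6 were higher and 1 lower in OE, with a median of 0.21. Its factor gene Rel was higher by 1.23 (SE 0.131), the negative regulator gene PGRP-LB was higher by 1.21 (SE 0.217), and Tab2 was lower by -0.50 (SE 0.129), a call lost without course 2 of conOE (adjusted p = 0.0798) or course 2 of OE (adjusted p = 0.0508). In RNAi 1 of 13 was higher, Diap2 (0.16), and 3 were lower, among them Rel (-0.31, SE 0.0837) and IKKbeta (-0.58, SE 0.166), with a median of 0.10. Of 24 alternatives, 12 lost the call for Diap2 (adjusted p up to 0.340), 5 that for Rel (up to 0.111, with 1 value per course) and 5 that for IKKbeta (without ZT23, -0.38, adjusted p = 0.103). Leaving out a course ended the call for Diap2 with course 1 or 2 of conRNAi or course 1 or 3 of RNAi, for Rel with course 1 or 3 of conRNAi or course 1 of RNAi, and for IKKbeta with course 3 of conRNAi or course 1 or 2 of RNAi. All 8 measured Imd targets were higher in OE, with a median of 4.51, among them Def, the defensin gene, by 4.64 (SE 0.198) and PGRP-SB1 by 2.65 (SE 0.130). In RNAi 2 of 7 were lower, PGRP-SD, which also stands in the Toll list, and PGRP-SB1 (-0.56, SE 0.140), and 0 were higher, with a median of 0.11. The call for PGRP-SB1 was lost without course 1 of conRNAi (adjusted p = 0.0752). Of 9 JAK-STAT and stress genes, 7 were higher and 0 lower in OE, with a median of 0.41, among them the stress peptide genes TotX by 2.30 (SE 0.171) and TotA by 3.31 (SE 0.248). In RNAi 4 of 8 were lower and 0 higher, with a median of -0.29, among them vir-1 (-0.27, SE 0.0495) and TotM (-1.31, SE 0.336). The call for TotM was lost without course 2 of RNAi (-0.79, adjusted p = 0.107), and that for vir-1 with 1 value per course (adjusted p = 0.0734).

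Markers of the fat body and of hemocytes, both sources of immune peptides, were counted beside them. Over all genes, 22.7% were higher and 18.6% lower in OE, and 9.23% higher and 13.1% lower in RNAi. Of 9 fat body markers, 6 were higher and 1 lower in OE, with a median of 0.96. The storage protein gene Lsp1beta was higher by 6.11 (SE 0.386) and Obp99b by 2.53 (SE 0.145), while the yolk protein gene Yp3 was lower by -0.70 (SE 0.190), a call lost without course 2 of conOE (adjusted p = 0.0744). The summed level of the 9 ranged from 128108 to 348002 in conOE and from 137490 to 406643 in OE, so the sums overlapped. Abundant genes weigh most in these sums. Yp3 alone, a lower gene, ranged from 42777 to 107501 in conOE and from 15426 to 80426 in OE. Lsp1beta, a higher gene, ranged from 160 to 6491 and from 17464 to 56806. In RNAi 6 of 9 were lower, among them Lsp1beta (-1.58, SE 0.155) and the lipoprotein gene apolpp (-0.51, SE 0.0603), and 1 was higher, Lsp2 (1.28, SE 0.219), with a median of -0.51. The sums were 125906 to 314355 in conRNAi and 93129 to 372174 in RNAi.

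Of 14 hemocyte markers, 8 were higher and 0 lower in OE, with a median of 0.38, among them Hml (0.89, SE 0.113) and Sr-CI (0.88, SE 0.115). Their sums were 2039 to 2606 in conOE and 2557 to 3503 in OE. In RNAi 2 of 13 were higher, NimC1 (0.55, SE 0.156) and Hml (0.19, SE 0.0620), and 1 was lower, Col4a1 (-0.33, SE 0.0594), with a median of -0.09 and 10 not passing. The call for Hml was lost under 9 of 24 alternatives (adjusted p up to 0.276), among them without course 1 or 2 of conRNAi or course 1 or 3 of RNAi. That for NimC1 was lost without course 2 of RNAi (adjusted p = 0.0784) and with 1 value per course (adjusted p = 0.0767). The sums were 2076 to 3135 in conRNAi and 2066 to 2865 in RNAi. Of 7 neuron markers, 3 were lower and 0 higher in OE, with a median of -0.15, among them Syt1 (-1.38, SE 0.137) and Appl (-0.48, SE 0.0707). In RNAi 4 of 7 were higher, among them brp (0.55, SE 0.136) and Syx1A (0.38, SE 0.0945), and 1 was lower, Syt1 (-0.46, SE 0.0741), with a median of 0.27. With 1 value per course the calls for brp (adjusted p = 0.0575) and Syx1A (adjusted p = 0.0822) were lost, and that for Syx1A also without course 3 of conRNAi (0.24, adjusted p = 0.0727). Of 7 photoreceptor markers, 4 were lower and 0 higher in OE, with a median of -0.24, among them Arr1 (-0.60, SE 0.0811) and ninaE (-0.41, SE 0.0940), while in RNAi 0 of 7 passed in either direction, with a median of -0.02. The call for ninaE was lost with 1 value per course (adjusted p = 0.129). All 7 neuron and 7 photoreceptor markers were listed in both tables, which hold no value of 0. The part of tissue composition in the Bomanin differences was not tested.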

How the data were processed

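Fly heads were profiled by 3′ RNA-seq after TRI reagent extraction, with poly(A) selection after fragmentation, per the labels' protocols. Bowtie, TopHat and the build dm3 were used, per the submitters' processing notes; the sources used here do not state versions, counting tool, annotation or strand. Judged from its steps, the deposited signal is reads scaled per library by a size factor: of 512004 values, all but 1 came out as whole reads (within 0.05). No listed value is 0, so genes silent in some libraries are not analysed here. The authors' deposited p-values and q-values of a rhythm test, whose method the file headers do not name, were copied for the 9 genes.

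For each CG number the most abundant listed transcript was used. RefSeq (Release 6 plus ISO1 MT) gave the symbols: for the overexpression experiment, 7378 genes by locus tag and 218 by synonym, with 52 left under the deposited name, and for the RNAi experiment 7186, 207 and 51. Gene order and strand came from the annotation of Release 6, with no coordinates. The tables were fitted separately by limma-trend 3.58.1 (R 4.3.3) on log2(value + 1) with time and genotype, adjusted by Benjamini-Hochberg over all genes. Fold changes are on that scale and understate the change of low genes. Joint tests covered genotype by time and a 24 h harmonic per genotype. A count model had been planned for counts only, so edgeR 4.0.16 on the recovered reads was an alternative (over all genes, 1725 higher and 1749 lower in OE, 915 and 998 in RNAi), beside pseudocounts, a filter on low values, scalings, a replicate block, 1 value per course, libraries, courses or times left out, and sums over transcripts. Scripts were tested on simulated data. The members, pathway and marker lists were chosen with earlier results of these data known. Besides all members, the text names the 2 to 4 genes of lowest adjusted p per list and direction, genes needed to read the pathway, and the 5 genes most like the members' mean. For lists with fewer passing genes, those are named. Medians of lists are over measured genes.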

Additional observations from a re-analysis of the deposited data

How the results depend on the processing

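Over 21 alternatives, 8 of the 9 genes stayed higher and 1 lower in the overexpression experiment. In the RNAi experiment 4 to 6 were lower over 24 alternatives, and BomS4, BomS6 and BomT2 stayed past the threshold in all of them. The number higher was 0 without ZT23 and 0 to 1 when each course was left out. Deviations of same-numbered courses correlated weakly, at -0.00111 in the overexpression experiment and at 0.0139, 0.0642 and 0.104 in the RNAi experiment. With 2 courses the deviations mirror each other, so differently numbered courses gave 0.00111 by construction, which cannot decide on pairing. With 3 courses the deviations are also tied, so the values for same and other numbers are not independent. Course 1 of conRNAi correlated more with course 2 of RNAi (0.0186) than with its own number. Courses 2 and 3 of conRNAi correlated most with their own number, and at -0.0911 to 8.07e-05 with the others. With the replicate block the counts were 8 and 1, and 1 and 6. Over all genes in RNAi the block gave 760 higher and 1061 lower, where the main fit gave 687 and 977. With the block the harmonic of conRNAi passed for 2 genes. With courses left out it passed for 0 to 2 in conRNAi and 0 to 2 in OE. Values of genes that did not pass turned sign as follows on the log2 scale. In the overexpression experiment, Tl gave 0.0453 without libraries under 1000000 reads, dl -0.0164 when transcripts were summed, and cact -0.0318 to 0.170 with courses left out. In the RNAi experiment, dl gave 0.000136 with a pseudocount of 5, 0.00431 with TMM scaling, 0.00525 with median-ratio scaling, 0.0457 without ZT11 and 0.0923 without ZT15. BomS1 gave -0.0607, spz -0.0139 and cbt 0.0148 without ZT23, and BomS2 gave 0.0361 without ZT3 and 0.0367 without ZT7. With courses left out, the ranges were -0.0168 to 0.246 for BomS1, -0.0592 to 0.0393 for BomS2, -0.323 to 0.0491 for Tl, -0.0999 to 0.0102 for cbt, -0.0859 to 0.0740 for dl and -0.00219 to 0.0912 for spz. The causes were not tested. Counts over all genes moved by more than 1.5 times when courses were averaged to 1 value (816 lower in OE; 239 higher and 433 lower in RNAi), without course 2 of conOE (885 lower) and without course 1 of conRNAi (430 higher and 637 lower). Harmonics over all genes moved as far with single courses left out (7 to 13 in conOE, 109 to 117 in OE, 135 and 149 in conRNAi, 62 and 71 in RNAi) and with the block in OE (71). Genotype by time moved from 0 to 6 genes without course 2 of conOE, 14 without course 1 of OE, 11 without course 1 of RNAi and 1 without the 2 high libraries. Depth limits the 7 libraries under 1000000 reads most, although every value of these genes rests on at least 62 reads.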
